A study of Mus musculus with 2 samples.

Results

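Lymphatic endothelial cells line the vessels that drain fluid and immune cells from the tissue around the aorta. They were picked from a single-cell RNA-seq study of the mouse abdominal aorta by 2 conditions on their RNA. A cell needed a UMI (a unique molecular identifier, standing for 1 captured transcript) of at least 2 of the 4 lymphatic genes Prox1, Flt4, Mmrn1 and Reln, and of at least 1 of the pan-endothelial genes Pecam1, Cdh5, Egfl7 and Tie1. It also had to hold at least 500 UMIs and 250 genes, with at most 25% of UMIs from mitochondrial genes. The rule found 53 cells among the 16403 that passed these limits. In mm10 (GENCODE M21) Prox1 lies at chr1:190118035-190170714, Flt4 at chr11:49609263-49652739, Mmrn1 at chr6:60924976-60989378 and Reln at chr5:21884454-22344702. The levels of the 4 lymphatic genes chose the cells, so they are described here and support nothing.

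The study asked how loss of Gsdme, which encodes the pore-forming protein gasdermin E, bears on abdominal aortic aneurysm. The KO group carried a global Gsdme deletion and the WT group was C57BL/6J. Mice of both groups received porcine pancreatic elastase (PPE) to induce an aneurysm, so no library without PPE was compared. Each group was 1 BD Rhapsody library of cells released from the aorta with collagenase I and DNase I. The sources used here do not give the age, the time after PPE or the number of mice per library. With 1 library per group no test between the groups was possible and no difference has a replicate check. Intervals in brackets are exact, at the 95% level, and cover counting error only, not the spread between cells or mice.

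Lymphatic endothelium is specified by the transcription factor Prox1 and grows in response to VEGF-C and VEGF-D through the receptor VEGFR3, the product of Flt4. Initial lymphatic capillaries carry the hyaluronan receptor Lyve1 and release the chemokine CCL21, which draws dendritic cells and T cells bearing CCR7 into the vessel. Collecting vessels downstream have valves, whose formation needs Foxc2 and integrin alpha 9. In the arterial wall, lymphatics run in the outer layer, the adventitia.

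The 2 libraries held 52532964 UMIs (KO) and 38988898 UMIs (WT). Of their barcodes 73 were shared, none of them lymphatic endothelial cells. The median kept cell had 4062 UMIs in KO and 3835 UMIs in WT. Gsdme itself stood at 2.55 CPM (counts per 1000000 summed UMIs) over all kept KO cells and 5.53 CPM over all kept WT cells. The labels do not place the deleted part of the gene, so these counts do not check the genotype label. Lymphatic endothelial cells held 3 Gsdme UMIs in 2 of 33 KO cells and 1 UMI in 1 of 20 WT cells, too few for a comparison.

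The promoters of 3 genes that the results below turn on are printed as the 250 bases before the RefSeq start (build GRCm38.p6), with that of Ccl21d, a copy of the gene on the same chromosome. Prox1 sets lymphatic identity, Nts encodes the peptide neurotensin, and Ccl21a encodes CCL21. They lie at chr1:190170828-190171077 (minus strand), chr10:102490419-102490668 (minus), chr4:42773992-42774241 (minus) and chr4:41903363-41903612 (plus). Capitals mark matches, on either strand, to the GC box GGGCGG or to the AP-1 motif TGANTCA.
Prox1: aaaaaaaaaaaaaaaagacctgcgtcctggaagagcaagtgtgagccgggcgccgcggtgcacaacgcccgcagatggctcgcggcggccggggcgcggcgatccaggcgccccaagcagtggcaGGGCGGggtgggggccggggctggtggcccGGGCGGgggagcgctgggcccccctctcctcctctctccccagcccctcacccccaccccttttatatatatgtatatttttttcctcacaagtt
Nts: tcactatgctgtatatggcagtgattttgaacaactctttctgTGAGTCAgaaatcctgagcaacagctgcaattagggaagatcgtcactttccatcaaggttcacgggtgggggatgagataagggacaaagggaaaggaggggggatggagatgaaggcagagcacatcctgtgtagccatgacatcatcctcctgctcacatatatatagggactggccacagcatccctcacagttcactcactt
Ccl21a: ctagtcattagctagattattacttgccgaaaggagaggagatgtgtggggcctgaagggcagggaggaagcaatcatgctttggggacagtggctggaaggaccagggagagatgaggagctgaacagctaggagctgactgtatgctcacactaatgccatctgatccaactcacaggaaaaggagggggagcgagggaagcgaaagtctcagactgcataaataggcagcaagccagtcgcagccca
Ccl21d: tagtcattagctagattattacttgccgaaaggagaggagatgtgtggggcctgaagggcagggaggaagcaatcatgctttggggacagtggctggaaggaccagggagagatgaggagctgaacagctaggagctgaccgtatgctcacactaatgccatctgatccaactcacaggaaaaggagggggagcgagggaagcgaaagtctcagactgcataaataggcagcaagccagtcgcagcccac
The Prox1 window held 2 GC boxes and was 64.8% G and C. The Nts window held 1 AP-1 match, and those of Ccl21a and Ccl21d held no match to either motif. No window held the SOX motif AACAAT or the ETS motif CCGGAA. Over 32851 mouse promoter windows of the same length, 32.7% held the GC box, 6.75% the AP-1 motif, 9.42% the SOX motif and 12.03% the ETS motif. The windows of Ccl21a and Ccl21d shared 248 of 249 aligned bases. Whether the authors' counting could part the transcripts of the 2 genes was not tested, so the Ccl21a counts are uncertain as to copy.

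The cells carried the lymphatic label in most but not all cases. All 4 lymphatic genes were found in 18 of 33 KO and 11 of 20 WT cells, and each of these cells also had Lyve1, which the rule did not use, and none had Flt1, the VEGF receptor of blood vessels. Among cells with exactly 2 of the genes, Lyve1 was found in 3 of 7 KO and 2 of 7 WT cells, and Flt1 in 3 of 7 in both libraries. Just outside the rule stood 88 KO and 106 WT cells with 1 lymphatic and at least 1 pan-endothelial gene. Of these, 15 KO and 12 WT cells had Lyve1, and 26 KO and 43 WT cells had the leukocyte gene Ptprc.

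Some cells held RNA of another cell type. A narrower set was formed, after the data were seen, of cells with no Flt1 or Ptprc UMI and at most 1% of their UMIs in each of 9 marker lists of other cell types. It kept 27 of 33 KO cells and 15 of 20 WT cells and is called trimmed below. The 6 KO and 5 WT cells left out held 33.6% of the UMIs of the KO cells and 57.3% of those of the WT cells. Over all cells, macrophage markers summed to 516 CPM in KO and 4229 CPM in WT, and fibroblast markers to 5398 CPM in KO and 823 CPM in WT. Smooth muscle markers stood at 321 CPM in KO and 42.9 CPM in WT, platelet markers at 153 CPM in KO and 875 CPM in WT, and dendritic cell markers at 190.5 CPM in KO and 60.0 CPM in WT. After trimming, macrophage markers stood at 461 CPM in KO and 783 CPM in WT and fibroblast markers at 524 CPM in KO and 623 CPM in WT. Adgre1, Cd163 and Fcna were then at 0 in KO, and Csf1r, Fcgr1, Ms4a7, Cd163 and Fcna at 0 in WT. Neutrophil markers (42.0 CPM in KO, 20.1 CPM in WT), T cell markers (20.98 CPM in KO, 80.3 CPM in WT), B cell markers (14.0 CPM in KO, 20.1 CPM in WT) and mesothelial markers (0 in both) were low. The T cell genes Cd3d, Cd3e, Cd3g and Trac were at 0. Where this RNA moves with a result, values are given for all cells and for the trimmed ones.

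Depth also differed among the trimmed cells. They ranged over 622 to 18605 UMIs in KO (median 4285) and 512 to 6739 UMIs in WT (median 4062). The 7 KO cells deeper than any trimmed WT cell held 55.6% of the trimmed KO UMIs. A still narrower set, called capped, leaves these out and compares 20 KO with 15 WT trimmed cells, with medians of 3211 UMIs in KO and 4062 UMIs in WT. The median mitochondrial share was then 7.21% in KO and 5.05% in WT. The part of other cells' RNA, depth or mitochondrial share in the differences below was not tested beyond the values given for the 3 sets.

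Within the trimmed set the 4 chosen genes were broadly spread. Mmrn1, which encodes the secreted protein multimerin 1, was found in every cell, at 394 to 12616 CPM in KO (median 5521) and 688 to 11231 CPM in WT (median 6232). Prox1 was found in 23 of 27 KO cells (median 1388 CPM, highest 4823) and 12 of 15 WT cells (median 1294 CPM, highest 3591). The highest KO value of Prox1 was 3 UMIs in the shallowest KO cell, of 622 UMIs. Flt4 was found in 24 KO cells (median 669 CPM) and 12 WT cells (median 1147 CPM). Reln, which encodes the extracellular protein reelin, was found in 21 KO cells (median 699 CPM) and 13 WT cells (median 1477 CPM). The ranges of KO and WT cells overlapped for all 4.

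**Figure D1:**
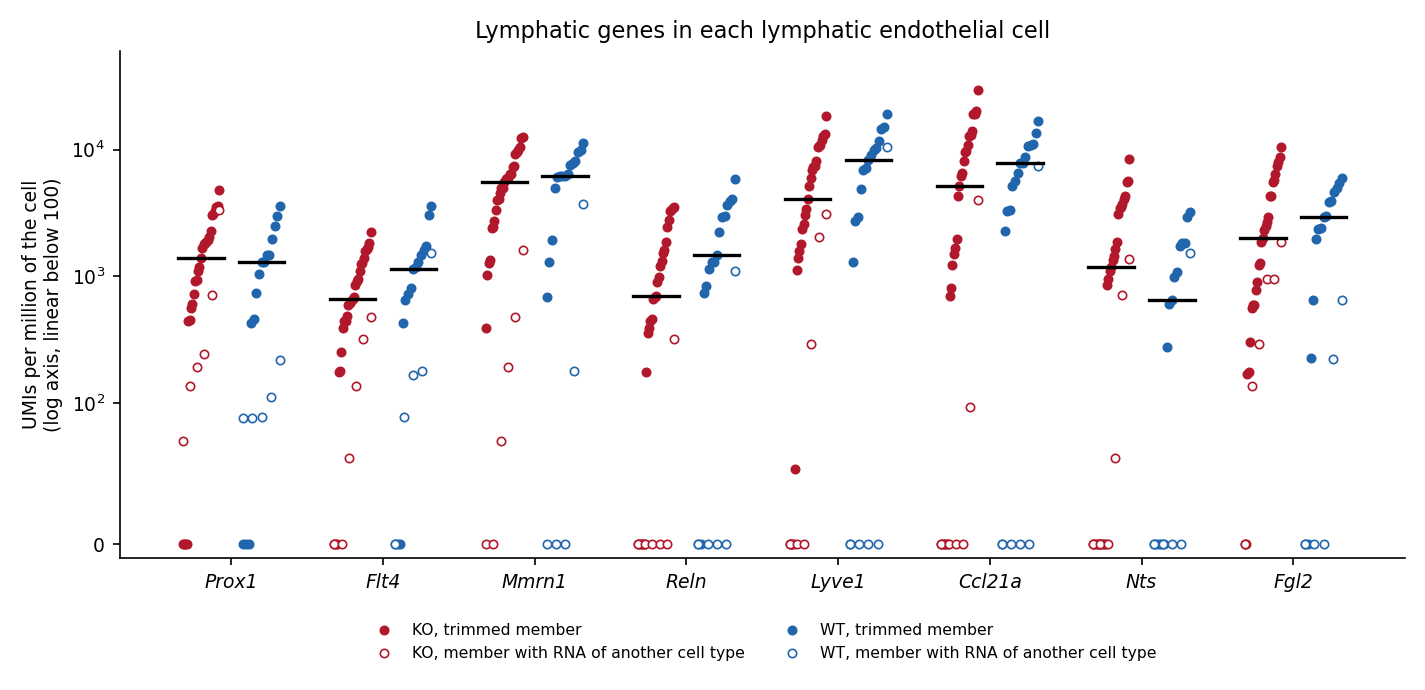
CPM within the cell for 8 lymphatic genes, 1 point per cell, KO (red) beside WT (blue), on an axis that is logarithmic above 100 and linear below. Bars are medians of the trimmed cells, and open points are cells with RNA of another cell type, many of which sit at 0 for Reln, Lyve1, Ccl21a and Nts.

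Lyve1 and Ccl21a, neither used by the rule, marked nearly all trimmed WT cells. Lyve1 was found in 23 of 27 KO cells, at a median of 4102 CPM and a highest value of 18223 CPM, and in 14 of 15 WT cells, at a median of 8290 CPM and a highest value of 18905 CPM. Ccl21a was found in 21 KO cells (median 5123 CPM, highest 29451) and 14 WT cells (median 7765 CPM, highest 16768). Nts was found in 17 KO cells (median 1194 CPM, highest 8484) and 10 WT cells (median 654 CPM, highest 3215). Every one of these genes was at 0 in at least 1 cell of both libraries, and the KO and WT ranges overlapped. Lyve1 is not limited to lymphatics: macrophages held 1363 CPM in KO and 515 CPM in WT. Ccl21a stood at 0.259 CPM in KO macrophages and 0.781 CPM in WT macrophages.

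Blood vascular endothelial cells served for comparison. They had at least 3 of the pan-endothelial genes, fewer than 2 lymphatic genes and no Ptprc, which gave 56 KO and 52 WT cells. In all, 4460 genes had at least 20 UMIs over lymphatic plus blood vascular cells in each library, and 3.68% of them were at least 2-fold higher in lymphatic cells in both libraries while 4.44% were at least 2-fold lower in both. Of the 21 measured lymphatic identity genes outside the rule, 13 were at least 2-fold higher in both libraries and 0 were at least 2-fold lower in both. With trimmed cells, where 4.8% of 4021 genes were higher, the count was 14.

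Among the identity genes, Lyve1 stood at 3675 CPM in lymphatic against 16.2 CPM in blood vascular cells of KO, and at 4400 CPM in lymphatic against 8.31 CPM in blood vascular cells of WT, 227-fold (115 to 528) and 530-fold (180 to 2577). Ccl21a had 868 lymphatic UMIs against 0 blood vascular UMIs in KO and 431 against 0 in WT. Nts stood at 1802 against 22.3 CPM in KO and 549 against 0 CPM in WT. Pdpn, which encodes podoplanin, the ligand by which lymphatics activate platelets, stood at 348 against 16.2 CPM in KO and 240.2 against 5.54 CPM in WT. Maf, a transcription factor gene, was 50.3-fold higher in KO and 16.0-fold higher in WT. Fgl2, which encodes a fibrinogen-like protein, was 36.4-fold higher in KO and 51.5-fold higher in WT. The polarity gene Pard6g was 96.5-fold and 71.3-fold higher, in KO and WT, Cp, which encodes ceruloplasmin, 16.5-fold and 6.53-fold, and the scavenger receptor gene Stab1 5.38-fold and 4.86-fold.

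Not every gene tied to lymphatic fate set the 2 vessel types apart. Sox18, which acts upstream of Prox1, had a lymphatic over blood vascular ratio of 1.00 in KO and 0.729 in WT. Gata2, a regulator of lymphatic valves, had ratios of 1.17 in KO and 0.760 in WT. Nr2f2, which encodes the venous and lymphatic factor COUP-TFII, had ratios of 1.93 in KO and 1.65 in WT, and of 2.51 and 2.78 with trimmed cells. Dtx1 had 153 CPM in KO and 94.4 CPM in WT lymphatic cells and 0 in blood vascular cells, with too few UMIs to count as measured.

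**Figure D2:**
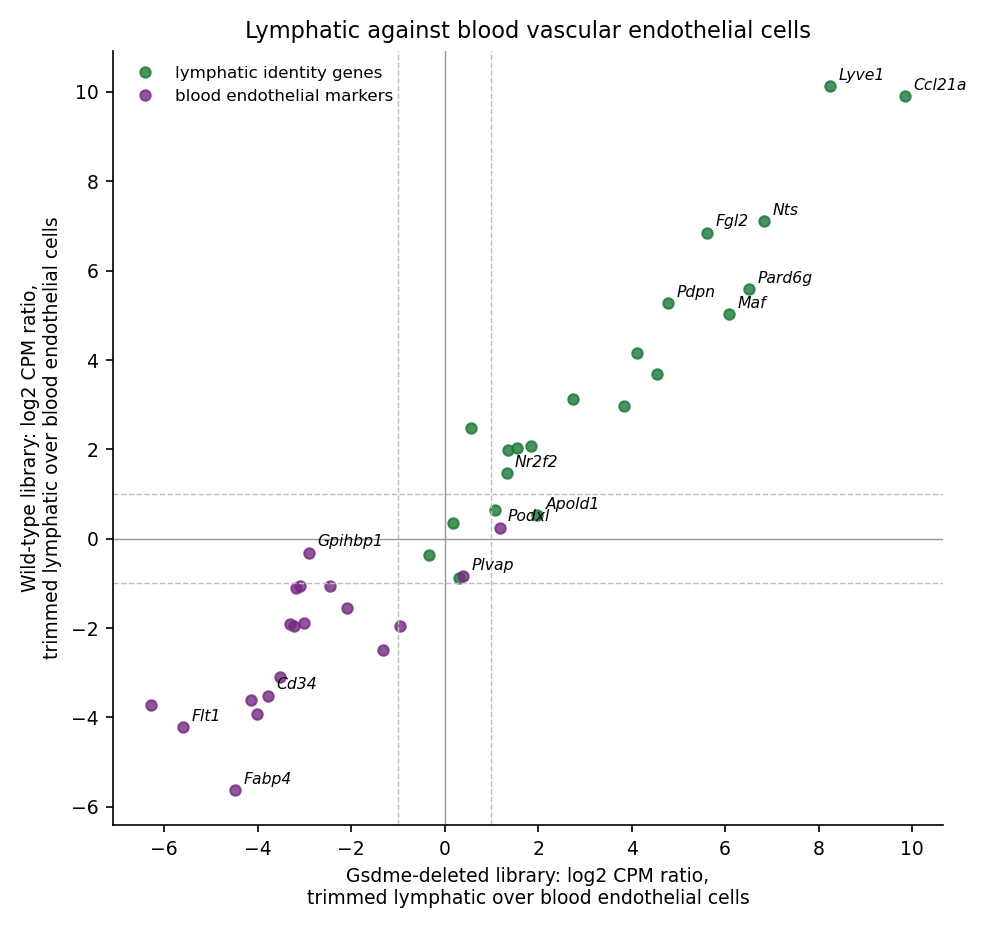
Lymphatic identity genes (green) and blood endothelial markers (purple), plotted as the log2 ratio of trimmed lymphatic over blood vascular CPM in KO (horizontal) and WT (vertical), with genes at 0 set to 3 UMIs. Dashed lines mark 2-fold. Identity genes such as Lyve1 and Ccl21a lie at the upper right and markers such as Fabp4 at the lower left, while Sox18, Gata2 and Plvap lie near the centre. The place of Flt1 was fixed by trimming, which left out every cell with a Flt1 UMI.

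Receptors for vessel growth and guidance split between the 2 endothelia. Flt4, a rule gene, is given as description only, at 604 against 30.3 CPM in KO and 678 against 52.6 CPM in WT. Its partner Nrp2, which encodes neuropilin 2, the coreceptor for VEGF-C, was 2.19-fold higher in lymphatic cells of KO and 2.79-fold higher in WT. Nrp1, which encodes the coreceptor used by blood vessels, stood at 23.2 against 362 CPM in KO and 180.1 against 462 CPM in WT. Kdr, which encodes VEGFR2, had lymphatic over blood vascular ratios of 1.795 in KO and 0.867 in WT. Of 14 measured semaphorin and plexin genes, 4 were at least 2-fold higher in both libraries and 2 lower. Sema3d, a secreted guidance cue, stood at 697 against 2.02 CPM in KO and 283 against 0 CPM in WT. Sema3a, another secreted cue with a known part in lymphatic valves, stood at 529.6 against 16.2 CPM in KO and 420.3 against 0 CPM in WT. Sema6a, a membrane semaphorin gene, was 3.38-fold higher in KO and 2.69-fold higher in WT.

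The capillary list had more of its genes among the higher ones than the valve list. Of 8 measured capillary genes outside the rule, 6 were at least 2-fold higher in both libraries (Lyve1, Pdpn, Ccl21a, Nrp2, Piezo2 and Itga9). Piezo2, a mechanosensitive ion channel gene, stood at 144 against 8.09 CPM in KO and 429 against 44.3 CPM in WT. The 1 lower gene was Cd36, a fatty acid receptor gene, at 107 against 3427 CPM in KO and 1149 against 3350.2 CPM in WT. Of 16 measured genes of collecting vessels and valves, 2 were higher in both, Nfatc1 and Itga9, and 1 was lower, Bmp4. Itga9 stands in both lists, and Lyve1, Pdpn, Ccl21a and Nrp2 are also on the identity list. The counts therefore do not tell capillary from valve cells. Nfatc1, a transcription factor gene active in valve formation, stood at 497 against 119 CPM in KO and 412 against 149.5 CPM in WT. Foxc2 UMIs were found in 7 of 33 KO and 5 of 20 WT lymphatic cells.

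Genes of leukocyte traffic were divided in the same way. Of 16 measured, 6 were at least 2-fold higher in lymphatic cells of both libraries. They were Lyve1, Ccl21a, Stab1, Sema3a, Spns2, which encodes the exporter of sphingosine 1-phosphate, and Mrc1, a mannose receptor gene that macrophages share. With trimmed cells the count was 5, and Mrc1 was no longer among them. Of 20 WT UMIs of Mrc1, 11 lay in 1 cell. Spns2 stood at 297 against 107 CPM in KO and 240.2 against 96.9 CPM in WT. The 4 lower ones were Selp, the P-selectin gene, and Icam2, Jam2 and Csf1. Jam2, a tight junction gene, stood at 83.6 against 374 CPM in KO and 77.2 against 485 CPM in WT, and at 0 in trimmed cells of both. All 4 measured MHC class II genes were at least 2-fold higher over all lymphatic cells of both libraries, but 0 of them with trimmed cells.

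Blood endothelial markers were low. Of 19 measured, 11 were at least 2-fold lower in lymphatic cells of both libraries and 0 were at least 2-fold higher in both, and with trimmed cells, where 7.06% of genes were lower, the count was 15. Fabp4, a fatty acid carrier gene of capillaries, stood at 492 against 7029 CPM in KO and 1312 against 4962 CPM in WT. The water channel gene Aqp1 stood at 265 against 1974 CPM in KO and 292 against 1708 CPM in WT. Vwf, Esm1 and Apln were at 0 in trimmed cells of both libraries. Flt1 was at 0 because trimming itself removed it, so its trimmed level supports nothing, also within the trimmed count. Plvap, which encodes a protein of endothelial fenestrae and of lymph node sinuses, went opposite ways over all cells, with ratios of 1.59 in KO and 0.319 in WT.

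Other lists separated the 2 endothelia less. Of 18 measured junction genes, 1 was higher (Nectin2) and 3 were lower (Jam2, Esam and Gja5). Of 9 chemokine genes, Ccl21a was higher and Cxcl9 lower. Of 12 genes of lipid uptake, 3 were lower (Cd36, Fabp4 and Scarb1), and all 4 measured smooth muscle markers were lower. Of 8 genes of endothelial-mesenchymal transition, 4 were lower, among them Acta2 and Tagln. Blood vascular cells were not trimmed of other cells' RNA. Their smooth muscle markers summed to 2140 CPM in KO and 1910 CPM in WT. The medians per cell were 184 CPM in KO and 40.5 CPM in WT, and the highest cells held 18219 CPM and 16835 CPM. The part of this RNA in the lower smooth muscle genes, among them Acta2, Tagln and Rgs5, was not tested. Of 23 immediate early genes 1 was higher (Dusp2), and of 10 MHC class I genes 0 were past 2-fold in both libraries in either direction. Outside the lists, the genes named by rank included Igfbp5, an insulin-like growth factor binding protein gene, at 4571 against 139.6 CPM in KO and 1801 against 188 CPM in WT. Adgrg3, an adhesion receptor gene, stood at 344 against 18.2 CPM in KO and 377 against 24.9 CPM in WT. Slc45a3, a solute carrier gene, stood at 214 against 2.02 CPM in KO and 214 against 0 CPM in WT, and Serpina3n, a protease inhibitor gene, at 451 against 26.3 CPM in KO and 292 against 13.8 CPM in WT. Cytip, a leukocyte gene, also ranked as higher over all cells and was at 0 in the trimmed cells of both libraries. Ptprc ranked so too, which its use in defining blood vascular and trimmed cells fixed. Among the lower ranked genes, the pericyte gene Rgs5 stood at 209 against 1204 CPM in KO and 8.58 against 1215 CPM in WT, Col8a1, a collagen gene, at 190.5 against 1143 CPM in KO and 120.1 against 1171 CPM in WT, and Cytl1, a cytokine-like gene, at 55.7 against 453 CPM in KO and 0 against 365 CPM in WT. Eln, the elastin gene, stood at 441 against 2096 CPM in KO and 1064 against 4477 CPM in WT.

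Lymphatic endothelial cells made up 33 of 8784 kept KO cells, 0.376% (0.259 to 0.527), and 20 of 7619 kept WT cells, 0.263% (0.160 to 0.405). The KO over WT ratio of shares was 1.43 (0.797 to 2.63). An interval that spans 1 leaves a difference not detectable at this number of cells. Trimmed cells made up 0.307% of KO and 0.197% of WT cells, a ratio of 1.56 (0.801 to 3.16). As a share of lymphatic plus blood vascular endothelial cells, the values were 37.1% in KO and 27.8% in WT, a ratio of 1.33 (0.744 to 2.45). Blood vascular cells made up 0.638% of KO and 0.683% of WT cells. Shares of cells released by digestion need not be shares in the tissue.

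In KO against WT, 3555 genes had at least 20 UMIs over the lymphatic cells of both libraries. Of these 9.14% were at least 2-fold higher in KO and 10% at least 2-fold lower. With trimmed cells, 12.4% of 2074 genes were higher and 6.08% lower, and with capped cells 9.36% of 1165 genes were higher and 6.78% lower. The same comparison in blood vascular cells gave 4.26% higher and 5.35% lower of 6315 genes. Those cells summed to 494364 UMIs in KO and 361177 UMIs in WT. Trimmed lymphatic cells summed to only 143024 UMIs in KO and 49790 UMIs in WT. The share past 2-fold depends on the cells and UMIs summed, so these shares do not compare the 2 cell types. The log2 KO over WT ratio had a median over genes of 0.04 for all, 0.06 for trimmed and 0.04 for capped cells.

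Of the few measured lymphatic capillary genes outside the rule, more were lower than higher in KO. Of 9 measured over all cells, leaving out the rule genes Mmrn1 and Reln, 3 were higher and 6 lower (median log2 ratio -0.35). At least 2-fold lower were 2 of them, against 10% of all genes. Cd36 was 1 of these 2, with 75 of 134 WT UMIs in 1 cell. After trimming it had 0 KO UMIs and 1 WT UMI. With trimmed cells 2 were higher and 5 lower of 7 (median -0.50), and with capped cells 1 was higher and 6 lower (median -0.35). Among all genes, 52.4% had a ratio above 1 over all cells and 52.7% over trimmed cells. Counts of higher and lower list members here and below are to be read against these shares. Lyve1 had a KO over WT ratio of 0.835 for all cells, 0.529 (0.470 to 0.596) for trimmed and 0.639 (0.556 to 0.733) for capped cells. Where 3 ratios follow each other from here on, they are for all, trimmed and capped cells. Nrp2 had ratios of 0.555, 0.505 (0.349 to 0.736) and 0.569 (0.362 to 0.885). In trimmed cells its median was 322 CPM in KO and 1106 CPM in WT, with a highest value of 2008 CPM in KO and 2780 CPM in WT. Piezo2 had ratios of 0.336, 0.153 (0.0883 to 0.258) and 0.219 (0.112 to 0.403). It was found in 13 of 27 trimmed KO cells (median 0, highest 3215 CPM) and 10 of 15 trimmed WT cells (median 278 CPM, highest 3043 CPM). The highest KO value lay in the shallowest KO cell, of 622 UMIs, where very few UMIs give a high CPM. In blood vascular cells Piezo2 was also lower in KO, at a ratio of 0.183.

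Over the wider identity list the direction turned with the set of cells. Of 22 measured genes outside the rule, 18 were higher and 4 lower in KO over all cells (median log2 ratio 0.22), while 7 were higher and 15 lower with trimmed cells (median -0.32) and 5 higher and 14 lower with capped cells (median -0.35). Ccl21a had a ratio of 1.09 over all cells, 0.706 (0.625 to 0.798) trimmed and 0.859 (0.748 to 0.986) capped. Macrophage markers, given above, stood at 516 CPM in KO and 4229 CPM in WT over all cells and at 461 CPM in KO and 783 CPM in WT over trimmed cells. Blood endothelial markers stood at 4599 CPM in KO and 4881 CPM in WT over all cells. Over trimmed cells they stood at 3048 CPM in KO and 1667 CPM in WT. The cells left out held 33.6% of the KO and 57.3% of the WT UMIs. The part of each of these in this turn was not tested. Hoxd8, a homeobox gene, and Tspan18, a tetraspanin gene, had trimmed ratios of 0.321 and 0.311. Nts stood higher in KO by summed UMIs in all 3 sets, at ratios of 3.28, 2.21 (1.67 to 2.98) and 2.05. With capped cells it was found in 10 of 20 KO cells (median 480 CPM) and 10 of 15 WT cells (median 654 CPM). The cell median was thus lower in KO in that set. Of 14 collecting vessel and valve genes, 9 were higher and 5 lower over all cells (median 0.37), and 6 and 5 of 11 with trimmed cells (median 0.22).

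**Figure D3:**
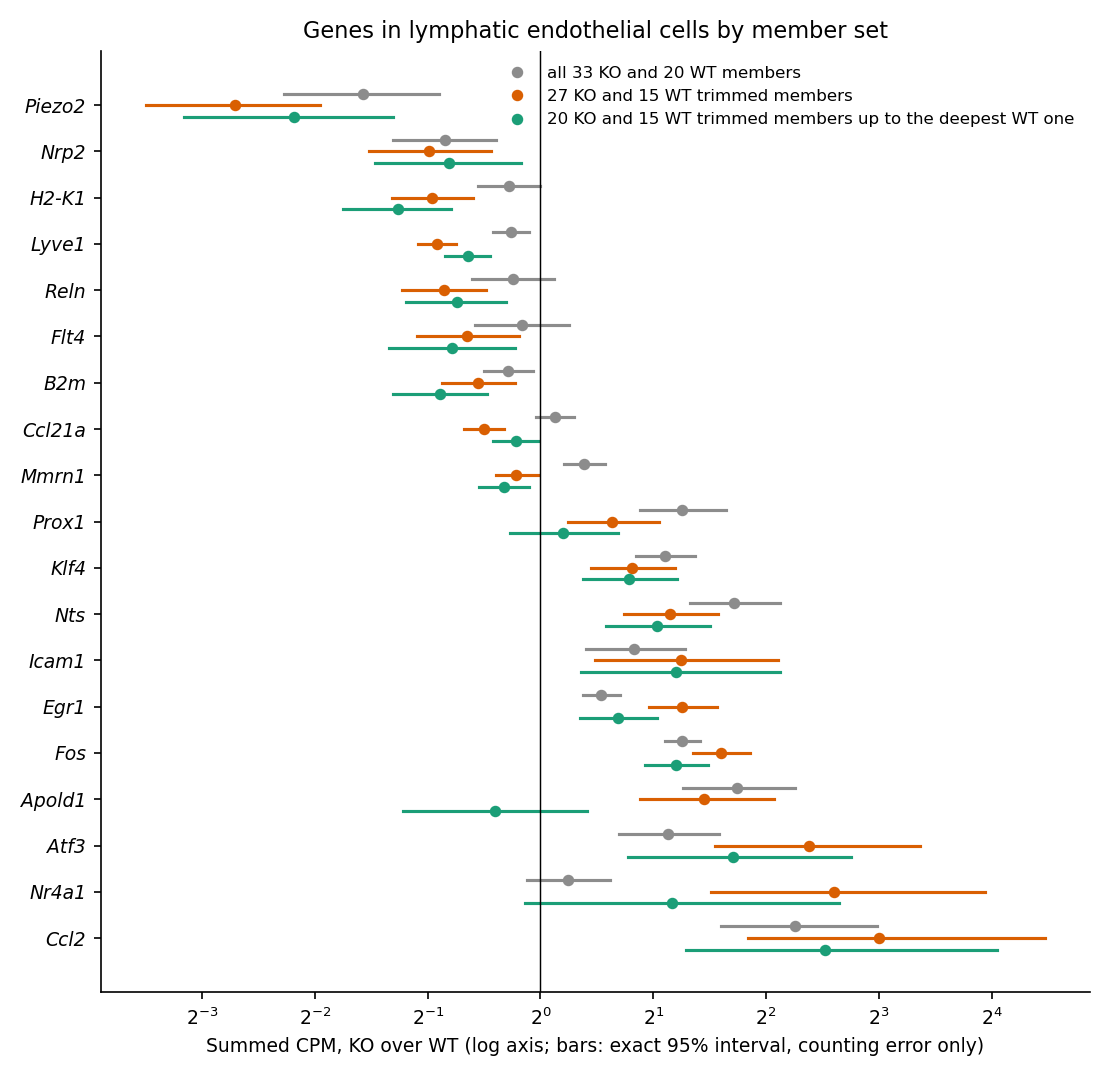
KO over WT ratio of summed CPM for 19 genes on a log axis, for all cells (grey), trimmed cells (orange) and trimmed cells no deeper than the deepest WT one (green), with exact 95% intervals for counting error. Piezo2, Nrp2 and Lyve1 lie below 1 and Nts, Fos, Atf3 and Ccl2 above 1 in all 3 sets, while Ccl21a, Mmrn1 and Apold1 cross 1 between sets.

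Immediate early genes, which cells switch on within minutes of a stimulus, were higher in KO by their summed UMIs. Of 23 measured, 16 were higher and 7 lower over all cells (median log2 ratio 0.20). Of these, 6 were at least 2-fold higher and 0 at least 2-fold lower, against 9.14% and 10% of all genes. With trimmed cells 19 were higher and 2 lower of 21 (median 1.26), and 13 were at least 2-fold higher, against 12.4% of all genes. With capped cells 14 were higher and 4 lower of 18 (median 0.80), and 8 were at least 2-fold higher, against 9.36% of all genes. In blood vascular cells 9 were higher and 15 lower (median -0.13), and 0 were past 2-fold. The 2 cell types were not tested against each other.

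Fos, a subunit gene of the factor AP-1, was found in 24 of 27 trimmed KO cells (median 4488 CPM, highest 24399.8) and 12 of 15 trimmed WT cells (median 1953 CPM, highest 7775). Its ratio was 2.39 over all cells, 3.03 (2.55 to 3.63) trimmed and 2.30 (1.90 to 2.80) capped, against 1.05 in blood vascular cells. Egr1, a zinc finger factor gene, had trimmed medians of 2243 CPM in KO and 688 CPM in WT and ratios of 1.45, 2.39 and 1.61. Atf3, a stress-induced factor gene, was found in 17 KO and 5 WT trimmed cells, with ratios of 2.19, 5.22 and 3.27. Nr4a1, a nuclear receptor gene, was found in 14 KO and 4 WT trimmed cells, with ratios of 1.18, 6.07 and 2.24 (0.910 to 6.27 capped).

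The cell medians differed less than the sums. Immediate early genes together took a median of 18223 CPM per trimmed KO cell (3034 to 68280.2) and 15119 CPM per trimmed WT cell (732 to 28020.2). The summed levels were 33225 CPM in KO and 13637 CPM in WT. The cells at the top of the range were KO cells, and the ranges overlapped below them. Across trimmed cells the list's level went with depth more in KO (Spearman's rho 0.50 over 27 cells) than in WT (0.18 over 15 cells), a description of points that share a library. With capped cells the KO median was 14226 CPM, below that of WT, and the summed level was 23689 CPM.

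MHC class I genes, which present peptides to cytotoxic T cells, were lower in KO. Of 8 measured, 2 were higher and 6 lower over all cells, none past 2-fold (median log2 ratio -0.16), 1 higher and 5 lower of 6 with trimmed cells (median -0.62), and 0 higher and 3 lower with capped cells (median -0.90). Per trimmed cell the list took a median of 3739 CPM in KO (1645 to 8301) and 8863 CPM in WT (1953 to 17953). The ranges overlapped, but no KO cell reached the WT median. Across trimmed cells the list's level rose with depth in KO (Spearman's rho 0.56 over 27 cells) but not in WT (-0.23 over 15 cells). These values describe points that share a library. With capped cells the KO median was 3505 CPM. H2-K1, a heavy chain gene, had trimmed medians of 859.98 CPM in KO and 1944 CPM in WT, with ratios of 0.826, 0.514 (0.401 to 0.662) and 0.417 (0.298 to 0.579). B2m, the light chain gene, had medians of 1377 CPM in KO and 2614 CPM in WT and ratios of 0.821, 0.682 and 0.540. In blood vascular cells 5 MHC class I genes were higher and 8 lower of 13, 3 of them at least 2-fold lower (median log2 ratio -0.36). Among all genes measured there, 5.35% were at least 2-fold lower. The blood vascular ratio was 0.696 for H2-K1 and 1.43 for B2m. List medians per blood vascular cell were 6307 CPM in KO and 7339 CPM in WT. Of 8 measured type I interferon genes, 4 were higher and 4 lower over all cells, none past 2-fold.

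**Figure D4:**
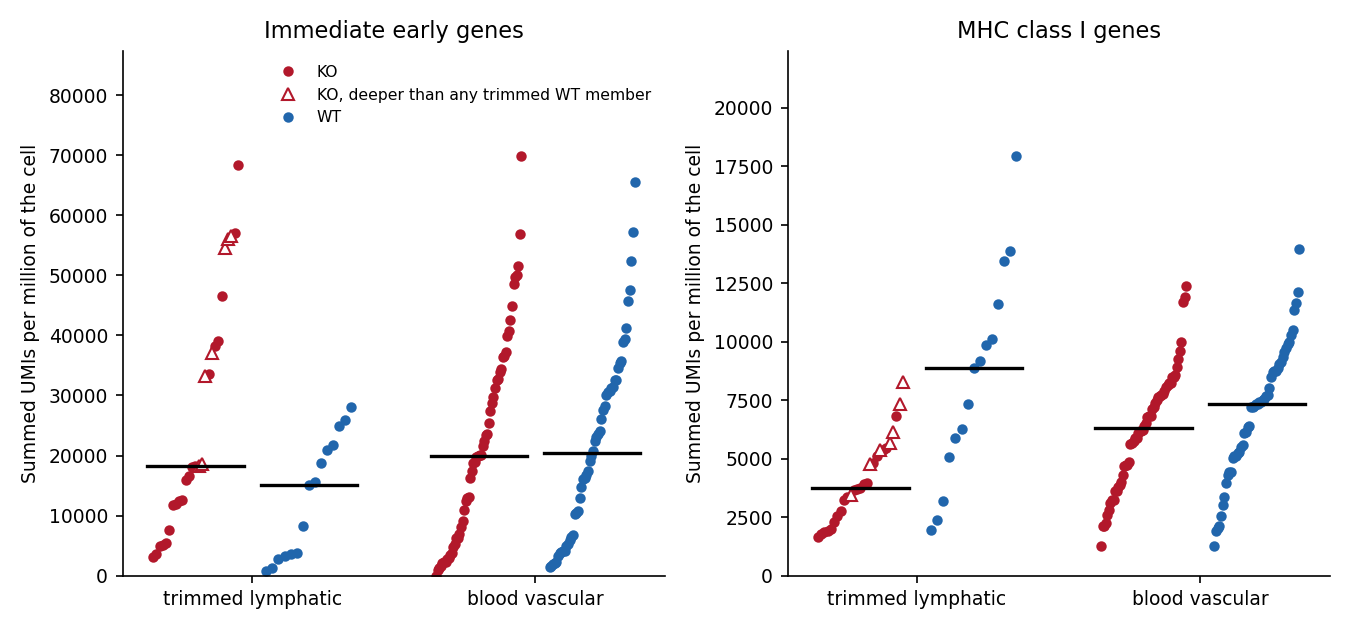
Summed CPM within each cell for immediate early genes (left) and MHC class I genes (right) in trimmed lymphatic and in blood vascular cells, KO (red) left of WT (blue), with medians as bars. Triangles are KO cells deeper than any trimmed WT cell. The highest immediate early values among lymphatic cells are KO cells, and the KO median of MHC class I genes, 3739, lies below the WT median, 8863.

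Inflammatory genes gave a mixed pattern. Of 13 measured genes of NF-kB feedback and TNF, 6 were higher and 7 lower in KO over all cells (median log2 ratio -0.23). With trimmed cells, however, 5 were higher and 2 lower of 7 (median 1.18), and 4 were at least 2-fold higher, against 12.4% of all genes. Ccl2, a monocyte-attracting chemokine gene, was found in 16 of 27 trimmed KO cells (median 197 CPM, highest 4513) and 6 of 15 trimmed WT cells (median 0, highest 987). Its ratio was 4.77 over all cells, 8.01 (3.59 to 22.2) trimmed and 5.75 (2.44 to 16.5) capped, and 2.45 in blood vascular cells. Icam1, an adhesion gene for leukocytes, was found in 15 KO and 6 WT trimmed cells, with ratios of 1.78, 2.37 (1.40 to 4.30) and 2.30. Cxcl2, a neutrophil chemokine gene, had a ratio of 0.0963 over all cells, but 1 WT cell held 164 of its 225 WT UMIs, and the trimmed ratio was 0.789. Of 8 chemokine genes in all, 4 were higher and 4 lower over all cells. Of 17 genes of leukocyte traffic, 12 were higher over all cells, against 3 of 11 with trimmed cells. Ackr3, a scavenging receptor gene for CXCL12 and adrenomedullin, had ratios of 3.48, 2.52 and 2.45. It belongs to a list of angiopoietin and adrenomedullin receptors in which 6 of 6 measured genes outside the rule were higher in both the full set (median log2 ratio 0.88) and the trimmed set (median 0.59).

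Genes named by rank gave further differences. Cmah, which encodes the enzyme that makes the sialic acid Neu5Gc, was found in 18 of 27 trimmed KO cells (median 619 CPM) and 5 of 15 WT cells (median 0, highest 8047), with ratios of 4.79 (3.21 to 7.43) over all cells, 3.21 (2.10 to 5.11) trimmed and 2.38 (1.49 to 3.95) capped. Rgs16, a regulator of G protein signalling, had ratios of 5.60, 4.12 and 2.48 (1.27 to 5.22). Plat, which encodes tissue plasminogen activator, was found in 12 KO and 2 WT trimmed cells, with ratios of 4.39, 15.7 (5.25 to 76.9) and 4.18 (1.20 to 22.4). Lcn2, the lipocalin 2 gene, was found in 22 KO and 6 WT trimmed cells, with ratios of 3.98, 2.68 and 2.11 (1.16 to 4.01). Plvap had ratios of 5.03 (3.30 to 8.02), 2.38 (1.44 to 4.15) and 1.61 (0.894 to 3.01). Pthlh, which encodes parathyroid hormone-related protein, had 35 UMIs in 5 KO cells, 22 of them in 1 cell, and 0 UMIs in WT cells, but only 2 UMIs in trimmed KO cells. Adamts4, a matrix protease gene, had ratios of 16.8, 5.22 (0.803 to 219.8) and 3.13, and Nupr1, a stress gene, 5.34, 5.74 (1.47 to 49.4) and 6.27, both with a UMI in only 1 trimmed WT cell.

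Several ranked differences drew many of their UMIs from 1 cell. Leaving out the cell of each library with most UMIs of the gene turned the direction of Sele, Cpe and Fn1 among 29 ranked genes. Of 43 KO UMIs of Sele, the E-selectin gene, 39 lay in 1 cell, and of 84 of Slc41a1, a magnesium transporter gene, 69 did. Apold1 had ratios of 3.36 over all and 2.74 over trimmed cells but 0.756 over capped cells, with 94 of 254 KO UMIs in 1 cell. Of the genes lower in KO over all cells, Ccr2, a monocyte receptor gene, had 40 of 50 WT UMIs in 1 cell and 0 UMIs in trimmed cells of either library. Clu had 106 of 119 WT UMIs in 1 cell, Edn1 49 of 52, Cpe 60 of 62 and Cd36 75 of 134. With trimmed cells the ratio stood above 1 for Clu (1.65), Edn1 (4.18), Fn1 (1.43) and Fabp4 (3.13), against 0.0956, 0.146, 0.384 and 0.375 over all cells. These trimmed ratios had wide intervals, 0.550 to 6.68 for Clu and 0.618 to 179 for Edn1, and capped ratios were 0.784 for Edn1 and 0.470 for Fabp4. Itga1, an integrin gene, stayed below 1, at 0.205, 0.380 (0.153 to 0.9499) and 0.427.

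The caveolar genes Cavin1 and Cavin2 were lower in KO in all 3 sets, with ratios of 0.685, 0.435 and 0.411 for Cavin1 and 0.776, 0.613 and 0.440 for Cavin2. Of 14 matrix protease and inhibitor genes, 6 were higher and 8 lower over all cells (median log2 ratio -0.14), and 7 and 3 of 10 with trimmed cells (median 0.57). Junction genes outside the rule were higher in 9 of 13 over all cells and 8 of 11 with trimmed cells, 0 of them past 2-fold upward. Of 13 genes of shear response and KLF factors, 8 were higher (median 0.38), among them Klf4, a shear-induced factor gene, with ratios of 2.16, 1.75 and 1.73. Among 11 semaphorin and plexin genes 8 were higher, and Sema3f, a secreted repellent cue, had ratios of 2.46, 2.49 and 3.40. Of 4 VEGF receptor and coreceptor genes outside the rule 1 was higher and 3 lower over all cells, and 1 was higher and 1 lower of 2 with trimmed cells.

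Lists with no clear direction included basement membrane (9 higher, 5 lower of 14), matrix receptors (4 and 6 of 10), BMP and TGF-beta (7 and 8 of 15), Notch (2 and 3 of 5), and heat shock (7 and 7 of 14), all over all cells. Hypoxia and glycolysis genes were higher in 3 and lower in 8 of 11 over all cells, and in 4 and 3 of 7 with trimmed cells. The interleukin 6 family was higher in 6 of 7 over all cells (median log2 ratio 0.32) and in 4 of 6 with trimmed cells (median 0.29). Interferon gamma genes were higher in 5 of 6 and MHC class II genes in 3 of 4 over all cells, with 2 and 0 measured in trimmed cells. Genes of lipid uptake were lower in 9 of 10 over all cells (median log2 ratio -1.45) and in 2 of 4 with trimmed cells (median -0.14). Gasdermin and caspase genes were higher in 2 and lower in 4 of 6, and endothelial-mesenchymal genes higher in 1 and lower in 4 of 5. Of the marker lists of other cells, macrophage genes were lower in 8 of 8 and fibroblast genes higher in 5 of 5 over all cells, as the sums above already showed.

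Nts and Ccl21a were not spread alike over the KO cells. A split made after the values were seen, by whether a cell held more Nts than Ccl21a UMIs, put 9 of 27 trimmed KO cells (33.3%, 16.5 to 54.0) and 0 of 15 trimmed WT cells in the Nts group. For 0 of 15 WT cells the exact interval reaches 21.8%. The 9 cells had a median of 5540.0 UMIs, against 3433 UMIs in the other 18 KO cells. By construction they held little Ccl21a. Their levels of genes the split did not use were 2071 CPM of Lyve1, 530.2 CPM of Reln and 3877 CPM of Mmrn1, against 7039.7 CPM of Lyve1, 1548 CPM of Reln and 7306 CPM of Mmrn1 in the other KO cells. Prox1 was at 2187 CPM in the 9 cells and 1863 CPM in the others. Cmah stood at 331 CPM in the 9 cells and 2431 CPM in the others. Foxc2, the valve factor gene, was found in 3 of the 9, 3 of the other 18 and 4 of the 15 WT cells, and Cldn11, a claudin gene, in 4, 2 and 4.

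The KO over WT ratios were also taken without these 9 cells. Those of Ccl21a, 1.17 (1.04 to 1.33), and Nts, 1.27 (0.918 to 1.77), were moved up and down by the way the cells were chosen and are given as description. Lyve1 stood at 0.754 (0.666 to 0.853), Nrp2 at 0.673 and Piezo2 at 0.193, each still below 1. Fos stayed at 2.38, Ccl2 at 5.42, H2-K1 at 0.486 and B2m at 0.627.

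**Figure D5:**
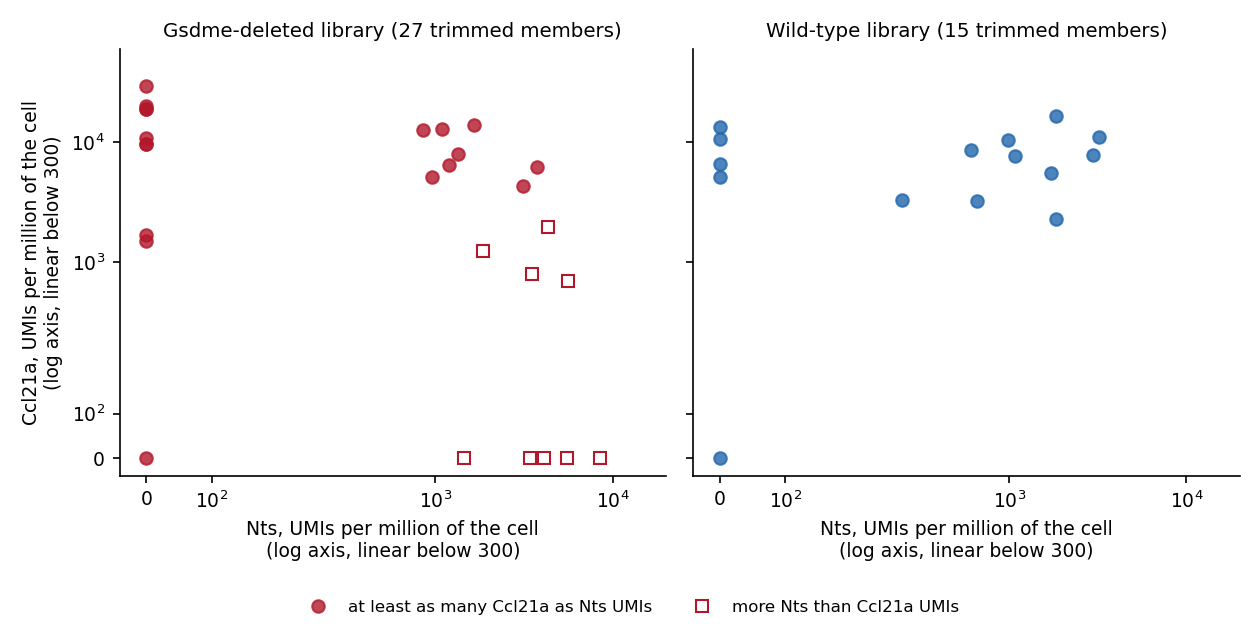
Ccl21a against Nts, in CPM within the cell, for each of 27 trimmed KO cells (left) and 15 trimmed WT cells (right), on axes that are logarithmic above 300 and linear below. Open squares mark the 9 KO cells with more Nts than Ccl21a UMIs. No WT cell lies in the lower right part of the plot.

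Growth factor genes for these cells were also read in other cell classes. Vegfd, a ligand of VEGFR3, stood at 369.5 CPM in KO fibroblasts and 492 CPM in WT fibroblasts and had 1 UMI in the lymphatic cells of each library. Vegfc, the other ligand, stood at 6.44 CPM in KO and 19.9 CPM in WT fibroblasts, and at 4.05 CPM in KO and 36.0 CPM in WT blood vascular cells. Lymphatic cells held 1 Vegfc UMI in KO and 0 in WT, too few for a comparison. Ccbe1, needed to process VEGF-C, stood at 69.2 CPM in KO and 119 CPM in WT fibroblasts and at 0 in lymphatic cells. Mki67, a gene of proliferating cells, had 0 UMIs in 33 KO lymphatic cells and 2 UMIs in 2 of 20 WT lymphatic cells. Pcna, which encodes the clamp of DNA replication and repair, had 46 UMIs in KO and 25 UMIs in WT cells, and the cyclin gene Ccnd1 had 61 UMIs in KO and 57 UMIs in WT cells. Of 4 measured cell cycle genes, 1 was higher and 3 lower in KO.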

How the data were processed

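The data are deposited count matrices of genes by cells, 1 per library, from BD Rhapsody. STARsolo, CASAVA 1.8 and build mm10 are named, per the submitters' processing notes. The counts were used as deposited, and are called UMIs here because the platform adds molecular identifiers, which the labels do not state. Of 16770 barcodes 16403 were kept. The lowest barcode held 500 UMIs in both libraries. No doublet caller was run and doublets were not removed. UMIs were summed over the cells of a class in each library and scaled to CPM. Ratios have exact conditional binomial intervals and shares Clopper-Pearson intervals. A class at 0 was set to 3 counts only for log2 ratios, which gave the calls at 2-fold and the list medians. A gene counted as measured with at least 20 UMIs, and as called at 2-fold. No test was run, since there is 1 library per group. The interval code was tested on simulated data. Blood vascular cells, 41 gene lists (511 of 513 genes matched), members and rules were chosen with earlier results of these data known. Up to 15 genes each way were named by the interval end nearest 1, among those with at least 30 UMIs, in at least 10% of cells of the higher library and a ratio past 1.5, beside list members. Trimmed and capped sets were added after the data were seen. Python 3.11.15, numpy 2.4.6, scipy 1.17.1, pandas 2.3.3, matplotlib 3.10.9, R 4.3.3 and edgeR 4.0.16 (TMM factors only) were used. GENCODE M21 gave the gene coordinates, and the promoter windows came from RefSeq starts in build GRCm38.p6.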

Additional observations from a re-analysis of the deposited data

How the results depend on the processing

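No paired analysis was possible because each group is 1 library. The KO over WT ratio of shares, 1.43, lay between 1.08 (no pan-endothelial gene needed) and 1.73 (3 lymphatic genes needed) under its alternatives, each above 1 and inside its counting interval. Of genes higher in KO (325) there were 109 with capped cells, 495 with means over cells, 40 with cells thinned to 1000 UMIs, 1148 with no minimum and 104 with at least 50 UMIs. Of genes lower in KO (356) there were 153 with 3 lymphatic genes needed, 126 trimmed, 79 capped, 26 thinned, 3112 with no minimum and 96 with at least 50 UMIs. Of genes higher in lymphatic over blood vascular cells (164) there were 26 thinned, 1670.0 with no minimum and 61 with at least 50 UMIs, and of genes lower (198) there were 348 with means over cells, 53 thinned, 325 with no minimum and 90.0 with at least 50 UMIs. With no minimum the median log2 ratio of all genes was -0.30 and 25.4% were lower in KO, and with median-of-ratios factors it was 0.14. Signs turned, in log2 KO over WT, for Cst3 (-0.067), Edn1 (0.41), Fn1 (1.90) and Fabp4 (1.99) with 3 lymphatic genes needed, and for Edn1 (0.73), Cpe (2.01), Fn1 (1.88) and Gadd45a (0.42) without Ptprc cells. With trimmed cells they turned for Clu (0.73), Edn1 (2.06), Ppbp (1.18), Nrgn (0.58), Ctla2a (0.12), Fn1 (0.52) and Fabp4 (1.65), and with capped cells for Apold1 (-0.40), Clu (0.82), Ppbp (1.82), Nrgn (1.23), Ctla2a (0.52) and Fn1 (0.48). Without the cell holding most UMIs of the gene they turned for Sele (-0.60), Cpe (2.36) and Fn1 (0.014). The cause was not tested. TMM factors, other limits on UMIs or mitochondrial share, means over cells, thinning and other minimums turned none of the 30 named genes they could give. Trimming, capping and dropping the pan-endothelial gene were chosen after seeing the data. With 53 cells, genes at a few UMIs per cell were not measurable.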
